A study of Homo sapiens with 9 samples.

Results

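The Polycomb complex subunits are 38 genes that encode the members of Polycomb repressive complex 2 (PRC2), Polycomb repressive complex 1 (PRC1) and the histone H2A deubiquitinase complex (PR-DUB). They were chosen by annotation, not by measured values: every probe set annotated to a member gene was taken. A single-gene probe set was found for 34 of the 38 members, 104 probe sets in all, out of 54675 probe sets on the array. All 34 passed the filter on low signal through at least 1 probe set, and 86 of the 104 probe sets passed. The genes tested numbered 13519 in all. RNF2, BMI1, CBX8 and BAP1 were not analysed here as single genes.

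Total RNA was taken from HSF-6, a line of human embryonic stem cells, and the 9 samples were each measured on 1 Affymetrix array. They form 3 groups of 3. The first group is the subline HSF-6(8) as a control without compounds, the second is HSF-6(8) grown with butyrate and DZNep, and the last is the subline HSF-6(S9) grown with butyrate and DZNep. Per the labels, every group was grown for 6 days and covered 11 passages, and cells were detached with TrypLE Express. Butyrate inhibits histone deacetylases, and DZNep (3-deazaneplanocin A) inhibits S-adenosylhomocysteine hydrolase, a block known to lower histone methylation by PRC2. No group had only 1 of the compounds. The labels do not say how the sublines differ, and an untreated HSF-6(S9) group was not analysed here, so subline and treatment cannot be told apart when treated HSF-6(S9) is set against untreated HSF-6(8).

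Polycomb proteins keep developmental genes silent, and in embryonic stem cells they cover many genes that act only in differentiated tissues. PRC2 methylates a lysine of histone H3, PRC1 attaches ubiquitin to histone H2A, and PR-DUB removes that ubiquitin. PRC1 occurs in canonical forms with CBX and PHC proteins, which read the PRC2 mark, and in variant forms with RYBP or YAF2, which reach chromatin without it.

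The signal is an array intensity on a linear scale after the authors' scaling, and it is not comparable between probe sets, so levels were compared only within a probe set. Array medians ran from 64.8 to 82.9. Nothing in the labels says that arrays within a group are separate cultures, so a p-value here reflects only the spread among these samples, and that spread may be technical. The arrays of each group are called the first, the second and the third after the prime marks of their titles. On the third arrays the 18S ribosomal RNA control signal was 1194, 723 and 2149, and on the remaining arrays it ran from 316 to 513. Of 12 embryonic stem cell markers, 11 were measured and all 11 passed the filter. SOX2 had a log2 difference between treated and untreated HSF-6(8) of -0.19 ± 0.26 (standard error, SE; limma adjusted p = 0.945) and NANOG of -0.48 ± 0.25 (adjusted p = 0.621), and SALL4 followed in size with 0.47 ± 0.46 (adjusted p = 0.887). NANOG was at -0.66 ± 0.25 in treated HSF-6(S9) against untreated HSF-6(8) (limma adjusted p = 0.269), with all treated arrays below all controls. SOX2 was at 0.18 ± 0.26 there (limma adjusted p = 0.816), with overlapping arrays. No member of that list was called in any comparison. Its summed signal was 133832 to 170941 in the controls, 130222 to 137617 in treated HSF-6(8) and 118890 to 196886 in treated HSF-6(S9).

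Only ASXL1 of the 34 tested members was called in a comparison with untreated cells. A gene was called when its limma p, adjusted by Benjamini-Hochberg over the 13519 genes, fell below 0.05 and the groups differed by 2-fold or more. Of all genes, 0.851% were called in treated against untreated HSF-6(8) and 1.18% in treated HSF-6(S9) against untreated HSF-6(8), and 1 call among 34 members is read against those shares. ASXL1, the scaffold that activates the PR-DUB deubiquitinase BAP1, was 2.55-fold higher in treated than in untreated HSF-6(8) and 2.37-fold higher in treated HSF-6(S9) than in untreated HSF-6(8). The catalytic PRC2 subunit EZH2 had a log2 difference of 0.40 ± 0.31 between treated and untreated HSF-6(8), with a 95% interval of -0.30 to 1.11. No member was called between the treated sublines.

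The promoters of 4 members are shown because the results turn on them: ASXL1 is the called gene, PHC2 and PCGF5 are the uncalled members with the smallest adjusted p against untreated cells in treated HSF-6(S9), and EZH2 is the methyltransferase. Each sequence is the 250 bases before the start that the RefSeq promoter table for GRCh38.p14 gives for the gene, read 5′ to 3′ on its strand. Capitals mark matches, on either strand, to the GC box GGGCGG or the CCAAT box CCAAT, and neighbouring matches can run together.
ASXL1: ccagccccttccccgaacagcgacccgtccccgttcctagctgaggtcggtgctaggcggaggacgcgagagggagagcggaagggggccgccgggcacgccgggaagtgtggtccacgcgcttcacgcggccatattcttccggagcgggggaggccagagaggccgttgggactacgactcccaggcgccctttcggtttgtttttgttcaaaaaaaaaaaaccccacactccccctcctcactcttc
PHC2: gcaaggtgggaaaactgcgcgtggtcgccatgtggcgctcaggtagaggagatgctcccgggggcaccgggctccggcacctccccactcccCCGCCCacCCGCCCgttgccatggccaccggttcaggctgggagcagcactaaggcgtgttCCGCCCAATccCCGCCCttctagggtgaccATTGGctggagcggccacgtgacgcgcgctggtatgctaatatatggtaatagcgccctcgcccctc
PCGF5: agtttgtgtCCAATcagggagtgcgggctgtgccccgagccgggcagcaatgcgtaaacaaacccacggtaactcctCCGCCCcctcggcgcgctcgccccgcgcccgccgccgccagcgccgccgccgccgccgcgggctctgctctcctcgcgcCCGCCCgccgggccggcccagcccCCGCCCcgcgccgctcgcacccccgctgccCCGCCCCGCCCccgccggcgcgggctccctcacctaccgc
EZH2: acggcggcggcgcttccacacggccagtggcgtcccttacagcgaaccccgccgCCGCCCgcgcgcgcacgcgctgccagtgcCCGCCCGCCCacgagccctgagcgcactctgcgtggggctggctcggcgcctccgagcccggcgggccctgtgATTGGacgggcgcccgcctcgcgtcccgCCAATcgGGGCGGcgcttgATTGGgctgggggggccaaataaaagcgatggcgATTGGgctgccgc
The ASXL1 stretch (chr20:32358081-32358330, plus strand) held neither motif, with 64% G and C and 23 CpG dinucleotides. The PHC2 stretch (chr1:33431096-33431345, minus strand) held 4 GC boxes and 2 CCAAT boxes, and the PCGF5 stretch (chr10:91162762-91163011, plus strand) 5 GC boxes and 1 CCAAT box. The PCGF5 stretch lies inside the gene span given here for PCGF5 (chr10:91156219-91284337), not before it. The EZH2 stretch (chr7:148884292-148884541, minus strand) held 4 of each.

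The table held 35 of the 38 members, all but CBX2, CBX8 and BAP1. The median G and C content of these 35 promoters was 71.6%, against 58% over all 27305 promoters of the table, and the median number of CpG dinucleotides was 25 against 11. A GC box was found in 24 of the 35 (68.6%) and in 42.3% of all promoters. A CCAAT box was found in 13 (37.1%, against 33.0%), an E2F-type motif (TTTCCCGC, TTTCGCGC, TTTGCCGC or TTTGGCGC) in 3 (8.57%, against 2.79%) and TATAAA in 3 (8.57%, against 11.1%), all searched on both strands. The motif matches describe letters in this window only.

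The first comparison, treated against untreated HSF-6(8), bears on the effect of the compounds within 1 subline. It called 1 of 34 members (ASXL1, higher), and 0.851% of all genes tested were called, 115 genes of which 102 were higher (0.754%) and 13 lower (0.0962%). The member log2 differences ran from -0.61 to 1.35, 17 positive and 17 negative, with a median of 0.00, the same to this precision as the median of all genes tested (0.00). At an unadjusted p under 0.05 there were 5 of 34 members and 9.79% of all genes. The 3 treated and 3 untreated arrays did not overlap for 8 members (23.5%), 5 higher and 3 lower, and for 17.3% of all genes (10.3% higher and 7.04% lower). For 25 members (73.5%) the 95% interval lay inside a 2-fold change in either direction, against 73.2% of all genes.

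The second comparison, treated HSF-6(S9) against treated HSF-6(8), addresses how the sublines differ under the same compounds. It called 0 of the 34 members with limma at the threshold above, 0 at an unadjusted p under 0.05 (2.54% of all genes), and 0 under each of the 21 alternative settings. Of all genes, 0.0074% (1 gene) were called. The member differences ran from -0.38 to 0.38 on the log2 scale with a median of 0.03, against -0.01 over all genes. Array signals did not overlap for 2 members (5.88%; PHC2 higher, PCGF5 lower) and for 6.38% of all genes (2.74% higher and 3.64% lower). The interval lay inside 2-fold for 32 members (94.1%) and for 77.4% of all genes.

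The last comparison, treated HSF-6(S9) against untreated HSF-6(8), called 1 of 34 members (ASXL1, higher), with 1.18% of all genes called (121 or 0.895% higher and 39 or 0.288% lower). The member differences ran from -0.99 to 1.56, again 17 positive and 17 negative, with a median of -0.01, against 0.01 over all genes. Unadjusted p was under 0.05 for 6 members and for 14.1% of all genes. Signals did not overlap for 11 members (32.4%), 7 higher and 4 lower, and for 20.2% of all genes (11.4% higher and 8.86% lower). The interval lay inside 2-fold for 22 members (64.7%) and for 68.6% of all genes. It shares its control arrays with the first comparison, so the ASXL1 results of both rest on the same 3 control signals. The plot of log2 differences by complex shows all 34 members.

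**Figure D1:**
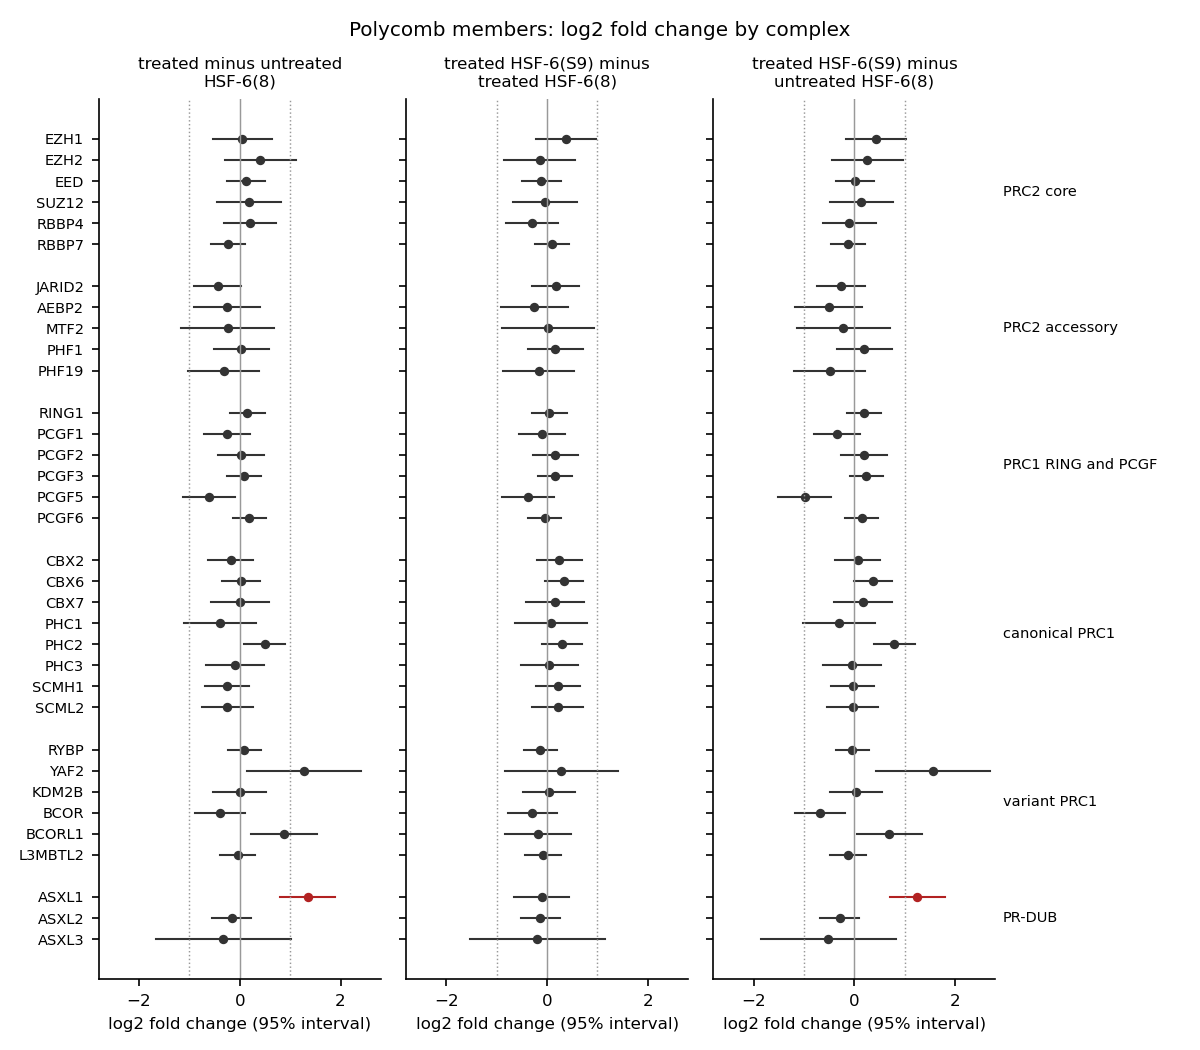
Log2 difference of each of the 34 tested Polycomb members, grouped by complex, in the 3 comparisons; points are limma estimates, bars are 95% intervals, and dotted lines mark a 2-fold change. ASXL1, in red, is the called member in the comparisons with untreated cells, and most other points lie close to 0.

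In the PRC2 core, no member was called in any of the 3 comparisons. The median log2 difference of its 6 members was 0.15 between treated and untreated HSF-6(8), -0.08 between the treated sublines and 0.07 between treated HSF-6(S9) and untreated HSF-6(8). EZH2 (chr7:148807383-148884291), the main methyltransferase of PRC2 in dividing cells, read 1162, 1015 and 1609 on the control arrays, 1290, 1313 and 2619 on the treated HSF-6(8) arrays and 1370, 1213 and 1949 on the treated HSF-6(S9) arrays. The third array was the highest in each group, and the groups overlapped. The mean was 1262 ± 309 in the controls (SD, n = 3), 1740 ± 761 in treated HSF-6(8) and 1511 ± 388 in treated HSF-6(S9), and the limma adjusted p of treated against untreated HSF-6(8) was 0.827. Leaving out 1 array at a time, the log2 difference ran from 0.07, without the third treated HSF-6(8) array, to 0.59, without the third control. EZH2 was not distinguishable between the groups at this spread, and its interval reaches from a small decrease to slightly over a 2-fold increase.

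EED (chr11:86244753-86287615), the subunit that binds the methylated histone tail, read 2955, 2723 and 3172 in the controls, 3118, 3121 and 3364 in treated HSF-6(8) and 2881, 2543 and 3538 in treated HSF-6(S9). The third array was the highest of each group, the groups overlapped, and the difference in HSF-6(8) was 0.12 ± 0.17 (95% interval -0.26 to 0.50). SUZ12 (chr17:31937007-32001038), which holds the core together, read 2520, 2836 and 4443 in the controls, 2840, 3280 and 4997 in treated HSF-6(8) and 3231, 3081 and 4268 in treated HSF-6(S9). The third array was again the highest of each group, and the difference in HSF-6(8) was 0.18 ± 0.28 (95% interval -0.45 to 0.81). For this EED probe set the interval excludes a 2-fold change in either direction, and so does that for SUZ12. The other kept EED probe set had a log2 difference of 0.66 in HSF-6(8), and the other kept one of SUZ12 had -0.09. A further probe set is shared by SUZ12 and its pseudogene SUZ12P1, and it had a log2 difference of -0.21 in HSF-6(8).

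EZH1 (chr17:42700275-42745040), the second methyltransferase of PRC2, read 1145, 1273 and 1079 in the controls, 1506, 1455 and 800 in treated HSF-6(8) and 1358, 2021 and 1431 in treated HSF-6(S9). All 3 treated HSF-6(S9) arrays lay above all 3 controls, while the treated HSF-6(8) arrays lay on both sides. The log2 difference was 0.44 ± 0.26 for treated HSF-6(S9) against untreated HSF-6(8) (adjusted p = 0.516) and 0.38 ± 0.26 against treated HSF-6(8). The 5 kept EZH1 probe sets ran from -0.44 to 0.92 in the former comparison and from -0.33 to 0.55 in HSF-6(8). RBBP4 (chr1:32651208-32686211), a histone-binding subunit that PRC2 shares with other complexes, read 11502, 9382 and 7661 in the controls, 11692, 11304 and 9470 in treated HSF-6(8) and 11576, 8350 and 6951 in treated HSF-6(S9). The third array was the lowest of each group, and the difference between the treated sublines was -0.30 ± 0.23 (95% interval -0.82 to 0.22). RBBP7, the X-linked paralog of RBBP4, had lower signals on all 3 treated than on all 3 untreated HSF-6(8) arrays, with a log2 difference of -0.23 ± 0.15 (adjusted p = 0.752).

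The 5 PRC2 accessory members, which steer the core to its targets, were not called either. Their median difference was -0.25 in HSF-6(8), 0.02 between the treated sublines and -0.27 between treated HSF-6(S9) and untreated HSF-6(8), and 4 of the 5 were negative in the comparisons with untreated cells. JARID2, which recruits PRC2 in stem cells, had the largest difference of this group in HSF-6(8), -0.44 ± 0.21 (adjusted p = 0.565), with all treated arrays below all untreated ones. The 3 kept JARID2 probe sets ran from -0.44 to 0.11 there. Kept probe sets of both signs were also found there for AEBP2 (-0.25 to 0.12), MTF2 (-0.24 to 0.33), PHF19 (-0.32 to 0.24) and PHF1 (-0.40 to 0.03). The signs of this group in HSF-6(8) thus depend on the probe set that represents each gene. In treated HSF-6(S9) against untreated HSF-6(8), all kept probe sets of AEBP2 and PHF19 were negative, and those of JARID2, MTF2 and PHF1 had both signs. AEBP2 and PHF19 had differences of -0.51 ± 0.30 and -0.49 ± 0.31 in treated HSF-6(S9) against untreated HSF-6(8). MTF2, a reader that anchors PRC2 at CpG islands, had an interval of -1.16 to 0.68 in HSF-6(8), which includes a 2-fold decrease.

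In PRC1, the 2 catalytic RING proteins could be followed through RING1 alone. RING1 (chr6:33208500-33212716), a ubiquitin ligase, read 1585, 1353 and 1528 in the controls, 1509, 1692 and 1759 in treated HSF-6(8) and 1628, 1645 and 1828 in treated HSF-6(S9). All treated HSF-6(S9) arrays lay above all controls, by a log2 difference of 0.19 ± 0.15 (adjusted p = 0.639). The difference in HSF-6(8) was 0.15 ± 0.15 (95% interval -0.19 to 0.49). The 6 tested RING and PCGF members had medians of 0.06, -0.00 and 0.17 in the 3 comparisons in the order above.

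PCGF5 (chr10:91156219-91284337) is a partner of the RING proteins in a variant form of PRC1 and had the largest negative differences of all members. It read 658, 497 and 410 in the controls, 413, 306 and 285 in treated HSF-6(8) and 278, 200 and 281 in treated HSF-6(S9). The treated HSF-6(S9) arrays lay below every array of both other groups, and the lowest control lay just under the highest treated HSF-6(8) array. The log2 difference was -0.61 ± 0.23 in HSF-6(8) (adjusted p = 0.398), -0.38 ± 0.23 between the treated sublines and -0.99 ± 0.23 in treated HSF-6(S9) against untreated HSF-6(8) (adjusted p = 0.0835), so PCGF5 was not called. Its other kept probe sets, at lower signal, had differences of 0.34 and -0.25 in that last comparison. The probe set shared by BMI1, another partner of the RING proteins, and the readthrough gene COMMD3-BMI1 had differences of 0.27 in HSF-6(8) and 0.22 in treated HSF-6(S9) against untreated HSF-6(8).

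Among the canonical PRC1 members, PHC2 (chr1:33323626-33431095), a Polyhomeotic protein that joins PRC1 particles into clusters, was the only one with arrays that did not overlap in HSF-6(8). PHC2 read 721, 695 and 789 in the controls, 1088, 980 and 1061 in treated HSF-6(8) and 1092, 1200 and 1607 in treated HSF-6(S9). The 3 groups did not overlap with each other, in the order control, treated HSF-6(8), treated HSF-6(S9). The log2 difference was 0.50 ± 0.18 in HSF-6(8) (95% interval 0.09 to 0.90, adjusted p = 0.355), 0.30 ± 0.18 between the treated sublines and 0.79 ± 0.18 in treated HSF-6(S9) against untreated HSF-6(8) (adjusted p = 0.0756), which was under 2-fold and not called.

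CBX6 (chr22:38861422-38872216), one of the chromodomain proteins of canonical PRC1, read 812, 740 and 681 in the controls, 701, 713 and 875 in treated HSF-6(8) and 854, 1031 and 1005 in treated HSF-6(S9). The treated HSF-6(S9) arrays lay above all controls, by 0.36 ± 0.17 on the log2 scale (adjusted p = 0.371), and the difference from treated HSF-6(8) was 0.33 ± 0.17. Between the treated sublines the 8 canonical members, each by its probe set of highest mean, had differences from 0.05 to 0.33. Their median was 0.22 against -0.01 over all genes. Over all kept probe sets, CBX2 ran from -0.27 to 0.25, PHC3 from -0.11 to 0.06 and CBX6 from 0.01 to 0.33, while PHC1 ran from 0.04 to 0.08. Some of the signs rested on 1 array: without the third treated HSF-6(8) array PHC1, PHC3 and CBX7 were at -0.20, -0.25 and -0.01, and with 1 array left out at a time the median ran from 0.08 to 0.26. None of the 8 was called, and none had an unadjusted p under 0.05. The group median was -0.14 in HSF-6(8) and 0.01 in treated HSF-6(S9) against untreated HSF-6(8).

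**Figure D2:**
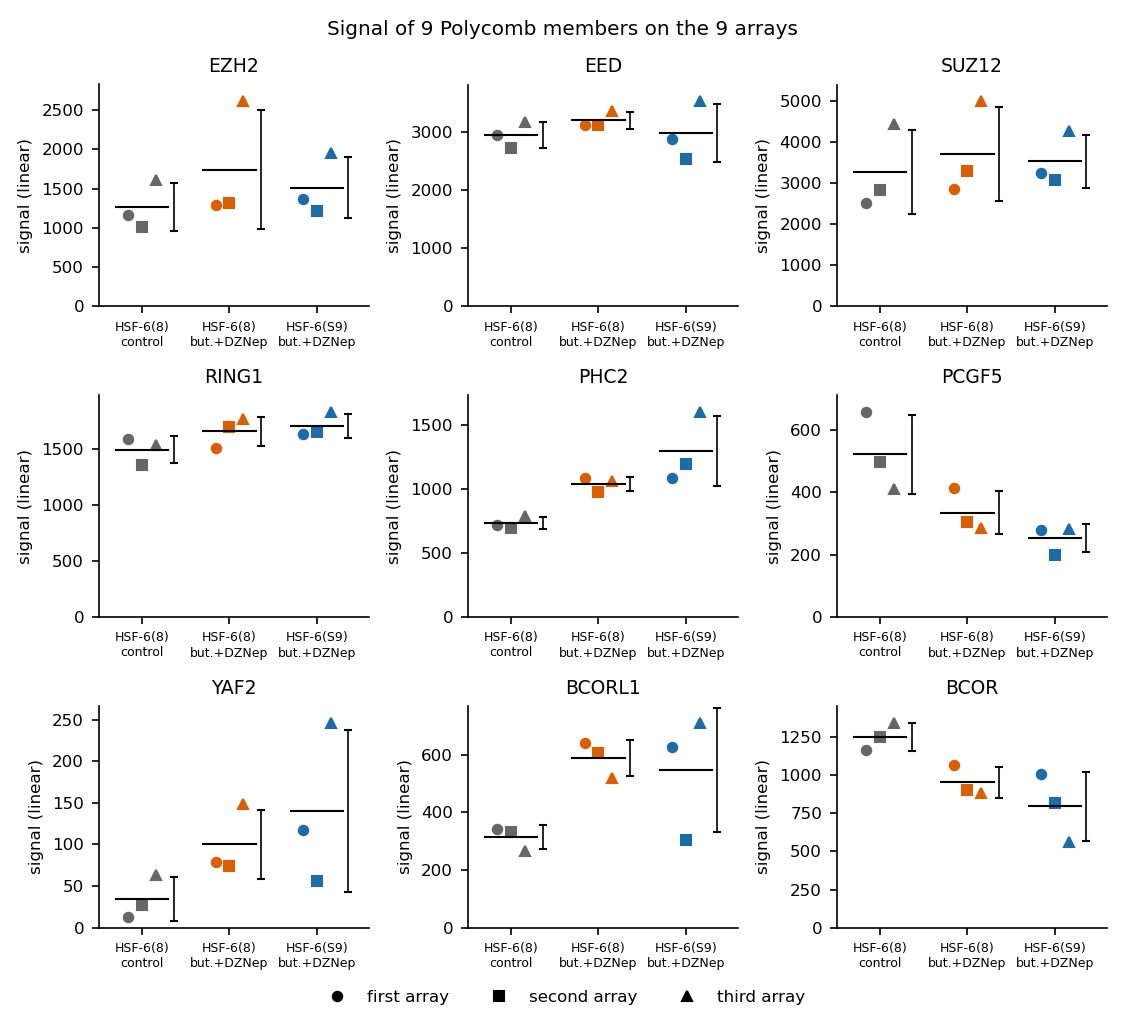
Signal (linear, axis from 0) of 9 Polycomb members on the 9 arrays, by group; circles, squares and triangles are the first, the second and the third array, horizontal lines are group means and bars are SD (n = 3). PHC2 separates the 3 groups, PCGF5 is lowest in treated HSF-6(S9), and the third array is the highest of each group for EZH2, EED, SUZ12 and YAF2.

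Of the variant PRC1 members, YAF2 (chr12:42157104-42238248), the paralog of RYBP, had a low signal of 12.4, 27.7 and 63.2 in the controls, 79.2, 73.7 and 148 in treated HSF-6(8) and 118, 55.8 and 247 in treated HSF-6(S9). Every treated HSF-6(8) array lay above every control, but 1 treated HSF-6(S9) array lay below the highest control. Each control signal was under the median of its own array (71.6, 64.8 and 71.5). YAF2 thus passed the filter on low signal through treated arrays only, which favours a higher treated value, here and in the calls below. The log2 difference was 1.28 ± 0.50 in HSF-6(8) (adjusted p = 0.414) and 1.56 ± 0.50 in treated HSF-6(S9) against untreated HSF-6(8) (adjusted p = 0.188), with 16 added to every signal before the logarithm. With a term for the third arrays, which were the highest of each group, the limma adjusted p was 0.0624 and 0.0266, so that YAF2 was called in the latter comparison under that setting.

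BCORL1 and BCOR are X-linked corepressors of the variant PRC1 that holds PCGF1, and their values lay on opposite sides of 0. BCORL1 (chrX:129980313-130058071) read 343, 331 and 266 in the controls, 638, 607 and 519 in treated HSF-6(8) and 625, 304 and 711 in treated HSF-6(S9). All treated HSF-6(8) arrays lay above all controls, while the second treated HSF-6(S9) array lay among the controls. The difference was 0.88 ± 0.29 in HSF-6(8) (adjusted p = 0.289) and 0.69 ± 0.29 in treated HSF-6(S9) against untreated HSF-6(8) (adjusted p = 0.319). With 1 array left out at a time the latter ran from 0.47 to 1.06. The highest value, without the second treated HSF-6(S9) array, had a limma adjusted p of 0.0486. The 2 kept BCORL1 probe sets ran from 0.51 to 0.88 in HSF-6(8) and from 0.06 to 0.69 in the latter comparison.

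BCOR (chrX:40051246-40177277) read 1161, 1247 and 1344 in the controls, 1069, 904 and 883 in treated HSF-6(8) and 1008, 816 and 560 in treated HSF-6(S9). All 6 treated arrays lay below all 3 controls. The difference was -0.39 ± 0.22 in HSF-6(8) (adjusted p = 0.679) and -0.68 ± 0.22 in treated HSF-6(S9) against untreated HSF-6(8) (adjusted p = 0.188). The 4 kept BCOR probe sets ran from -0.63 to 0.11 in HSF-6(8) and from -0.75 to -0.13 in the latter comparison. RYBP, KDM2B, the CpG-binding subunit, and L3MBTL2 had differences of 0.09, -0.00 and -0.04 in HSF-6(8), each with an interval inside 2-fold.

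In PR-DUB, ASXL1 (chr20:32358331-32439319) read 285, 311 and 286 in the controls, 768, 684 and 881 in treated HSF-6(8) and 628, 547 and 1075 in treated HSF-6(S9). The controls lay within a narrow range, and every treated array of either subline lay above all of them. The means were 294 ± 14.9, 778 ± 98.8 and 750 ± 284 (SD, n = 3). The log2 difference was 1.35 ± 0.24 in HSF-6(8) (95% interval 0.80 to 1.90, adjusted p = 0.0408) and 1.25 ± 0.24 in treated HSF-6(S9) against untreated HSF-6(8) (0.70 to 1.79, adjusted p = 0.0480). Between the treated sublines it was -0.11 ± 0.24 (-0.65 to 0.44).

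ASXL1 has 6 probe sets, all kept, and all had a positive log2 difference against untreated cells, from 0.52 to 1.47 in HSF-6(8) and from 0.62 to 1.60 in treated HSF-6(S9) against untreated HSF-6(8). Probe sets 212234_at and 212238_at also had every treated array above every control. The first of them read 194, 248 and 216 in the controls, 603, 652 and 650 in treated HSF-6(8) and 497, 597 and 1126 in treated HSF-6(S9). For the other three, at lower signal, the groups overlapped and the third array was the highest of each group. Tested as single probe sets over all 29328 kept, no ASXL1 probe set was called: the smallest adjusted p was 0.0939 in HSF-6(8) and 0.0595 in treated HSF-6(S9) against untreated HSF-6(8). No member probe set was called in any comparison, against 0.3%, 0% and 0.389% of all probe sets in the 3 comparisons.

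The ASXL1 call lay close to the threshold. In HSF-6(8) it was lost when any of the control arrays was left out (adjusted p = 0.141, 0.128 and 0.119), any of the treated HSF-6(8) arrays (0.130, 0.108 and 0.103) or the first treated HSF-6(S9) array (0.0745), while the log2 difference stayed between 1.26 and 1.44. In treated HSF-6(S9) against untreated HSF-6(8) it was lost without any of the controls (adjusted p = 0.148, 0.129 and 0.120), without the first or the second treated HSF-6(8) array (0.0841 and 0.0751) and without the first or the third treated HSF-6(S9) array (0.0713 and 0.0841), with a difference of 0.96 to 1.34 in those fits. With the mean of its 6 probe sets the difference was 0.95 (adjusted p = 0.436) and 0.99 (adjusted p = 0.281).

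ASXL2 and ASXL3, its paralogs, did not share this difference at the threshold used. ASXL2 had a log2 difference of -0.16 ± 0.17 in HSF-6(8) and -0.29 ± 0.17 in treated HSF-6(S9) against untreated HSF-6(8), where all treated arrays lay below all controls. Its 5 kept probe sets disagreed, running from -0.16 to 0.56 in HSF-6(8) and from -0.54 to 0.48 in the latter comparison. ASXL3 was low in signal, and its interval of -1.66 to 1.01 in HSF-6(8) includes a 2-fold change in either direction. The 3 tested PR-DUB members had medians of -0.16, -0.13 and -0.29 in the 3 comparisons. In HSF-6(8) the median ran from -0.25 to 0.39 with 1 array left out, turning positive without the third control or the second treated array, and in treated HSF-6(S9) against untreated HSF-6(8) it ran from -0.38 to -0.07.

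**Figure D3:**
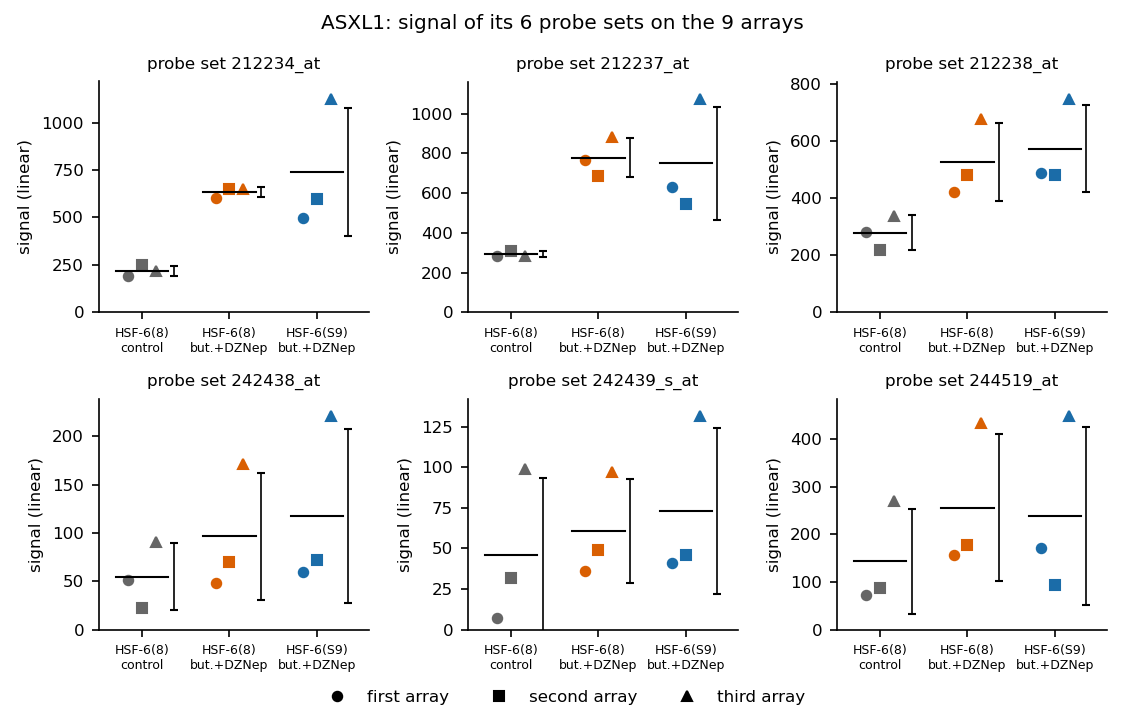
Signal (linear, axis from 0) of the 6 ASXL1 probe sets on the 9 arrays, by group; symbols mark the first, the second and the third array, horizontal lines are group means and bars are SD (n = 3), of which 1 would reach below 0 and ends at the axis. In the upper row all 6 treated arrays lie above the 3 controls, and in the lower row the third array is the highest of each group.

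Probe sets of 1 gene did not always point the same way. Of the 34 tested members, 24 had several kept probe sets, and in 9 of these all had the same sign in HSF-6(8) and in 13 in treated HSF-6(S9) against untreated HSF-6(8). The third arrays often stood apart within their group. Of the 86 member probe sets, 25 (29.1%) had their highest signal on the third array of all 3 groups, against 16.4% of all kept probe sets, and 18 (20.9%) their lowest, against 13.8%. In 9 member probe sets (10.5%, against 2.87%) the third array exceeded the mean of the other 2 by at least 2-fold in all 3 groups: 3 of RBBP4, 2 of ASXL1 and 1 each of EZH1, MTF2, RYBP and BCOR.

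The same gene could show opposite array patterns. RBBP4 probe set 237333_at read 170, 308 and 1568 in the controls, 374, 558 and 1919 in treated HSF-6(8) and 407, 319 and 1370 in treated HSF-6(S9), highest on the third arrays. RBBP4 probe set 210371_s_at, whose values stand above, was lowest there. MTF2 probe set 203345_s_at read 1448, 1993 and 5540 in the controls, while 209705_at read 4617, 4351 and 2215. The third arrays also had the high 18S control signal given above, and the part of either in these results was not tested. Comparing the first and second arrays only, ASXL1 had a difference of 1.24 in HSF-6(8) (adjusted p = 0.0486) and 0.94 in treated HSF-6(S9) against untreated HSF-6(8) (adjusted p = 0.0860), the latter no longer called.

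**Figure D4:**
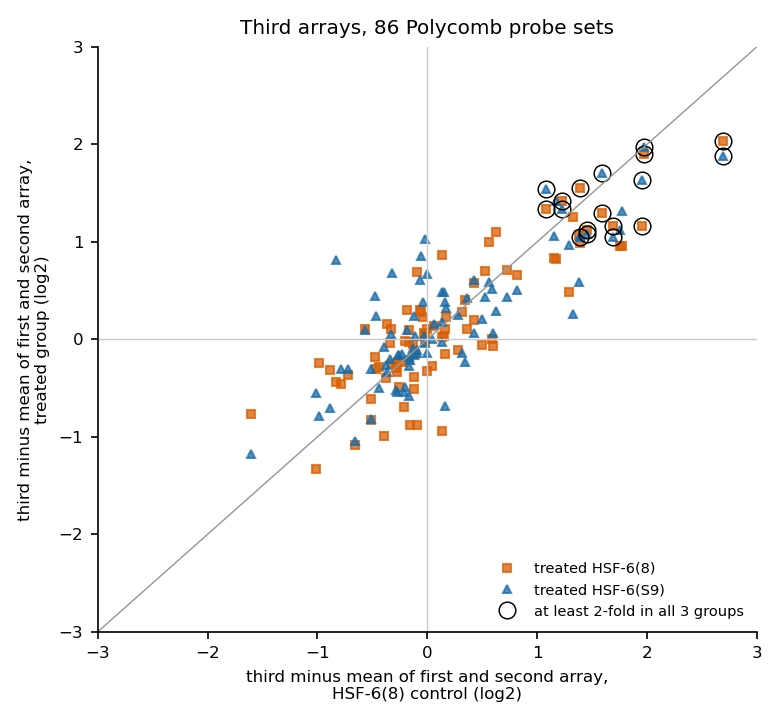
Log2 signal of the third array minus the mean of the first and second arrays for the 86 kept Polycomb probe sets, controls on the horizontal axis and the treated groups on the vertical axis; the diagonal marks equal values. The points lie along the diagonal, and the 9 circled probe sets exceed 2-fold in all 3 groups.

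The genes that work with or against the Polycomb complexes were described from 3 further lists. Of 34 other Polycomb partners, 33 were tested and 0 were called with limma in any comparison (1, 0 and 3 at an unadjusted p under 0.05), with medians of -0.02, 0.03 and 0.06. EPOP, a PRC2 partner in stem cells, had the largest differences among them, 0.90 ± 0.52 in HSF-6(8) and 1.97 ± 0.52 in treated HSF-6(S9) against untreated HSF-6(8) (adjusted p = 0.114), and FOXK1 followed in HSF-6(8) with 0.40 ± 0.16 (adjusted p = 0.428). Of 19 opposing enzymes, some of which demethylate the PRC2 mark or set marks of active genes, 18 were tested. With limma 0 were called (1, 0 and 1 at an unadjusted p under 0.05), with medians of 0.02, 0.09 and 0.06. KDM6B, a demethylase of the PRC2 mark, had a difference of 0.45 ± 0.15 in HSF-6(8) (adjusted p = 0.320) and 0.55 in treated HSF-6(S9) against untreated HSF-6(8) (adjusted p = 0.135), with every treated array above every control. NSD1, a methyltransferase of histone H3, had -0.29 ± 0.20 in HSF-6(8) (adjusted p = 0.788).

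Of 82 known Polycomb target genes, 70 were measured and 25 passed the filter on low signal, which favours genes that are high in some group. GATA3, a transcription factor of trophoblast and other lineages, read 179, 126 and 154 in the controls, 661, 809 and 758 in treated HSF-6(8) and 684, 631 and 977 in treated HSF-6(S9). The treated arrays of either subline lay far above all controls, by 2.17 ± 0.21 on the log2 scale in HSF-6(8) (adjusted p = 0.00127) and 2.19 ± 0.21 in treated HSF-6(S9) against untreated HSF-6(8). PAX3, a neural crest factor, was called with differences of 2.85 ± 0.51 and 3.34 ± 0.51, and in the second of these comparisons IRX5 (1.91 ± 0.33) and MEIS2 (2.56 ± 0.45) were called as well. In HSF-6(8) those 2 genes had differences of 1.51 (adjusted p = 0.0919) and 1.97 (adjusted p = 0.106). The median difference of the 70 measured targets without the filter was 0.27 in HSF-6(8), -0.03 between the treated sublines and 0.11 in treated HSF-6(S9) against untreated HSF-6(8), and 1, 0 and 2 of them were then called. Markers of other cell types were summed as well. The target and marker lists share PAX3, PAX6, GATA4, GATA6, SOX17 and EOMES, so their values are not independent of each other. The summed signal of the endoderm markers was 1251 to 1868 in the controls, 2378 to 19192 in treated HSF-6(8), where the third array was highest, and 2482 to 3140 in treated HSF-6(S9). That of the neuroectoderm markers was 25551 to 29776, 31379 to 36101 and 31446 to 42316, and that of the fibroblast markers 31619 to 41376, 35239 to 68672 and 35615 to 47510. Of the 11 neuroectoderm markers, 9 passed the filter, which favours genes that are high in some group, and NEFL, NEFM and PAX3 were called in both comparisons with untreated cells. With no filter, 2 of the 11 were called in HSF-6(8) and 3 in treated HSF-6(S9) against untreated HSF-6(8). No endoderm or fibroblast marker was called. In HSF-6(8) the endoderm factor GATA6 had a difference of 3.04 ± 0.63 (adjusted p = 0.0716) and TTR, a carrier protein of visceral endoderm and liver, 2.78 ± 0.72 (adjusted p = 0.146). For both, every treated array lay above every control, but the third was far the highest. There GATA6 read 281, 471 and 2541, and TTR 229, 250 and 1029. CER1 of the same list read 188, 234 and 4489 in treated HSF-6(8), against 355, 307 and 558 in the controls. In treated HSF-6(S9) all CER1 signals lay below all controls. The matrix genes FN1 and COL1A1 of the fibroblast list had 1.32 ± 0.30 (adjusted p = 0.108) and 1.10 ± 0.26 (adjusted p = 0.113). TAGLN of the same list went the other way, with -0.87 ± 0.61 in HSF-6(8) (limma adjusted p = 0.782). In treated HSF-6(S9) against untreated HSF-6(8) TAGLN had -1.37 ± 0.61 (limma adjusted p = 0.349), with all treated arrays below all controls. The part of such cells in the member values was not tested, and in bulk RNA fewer cells of a type and less RNA per cell cannot be told apart.

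**Figure D5:**
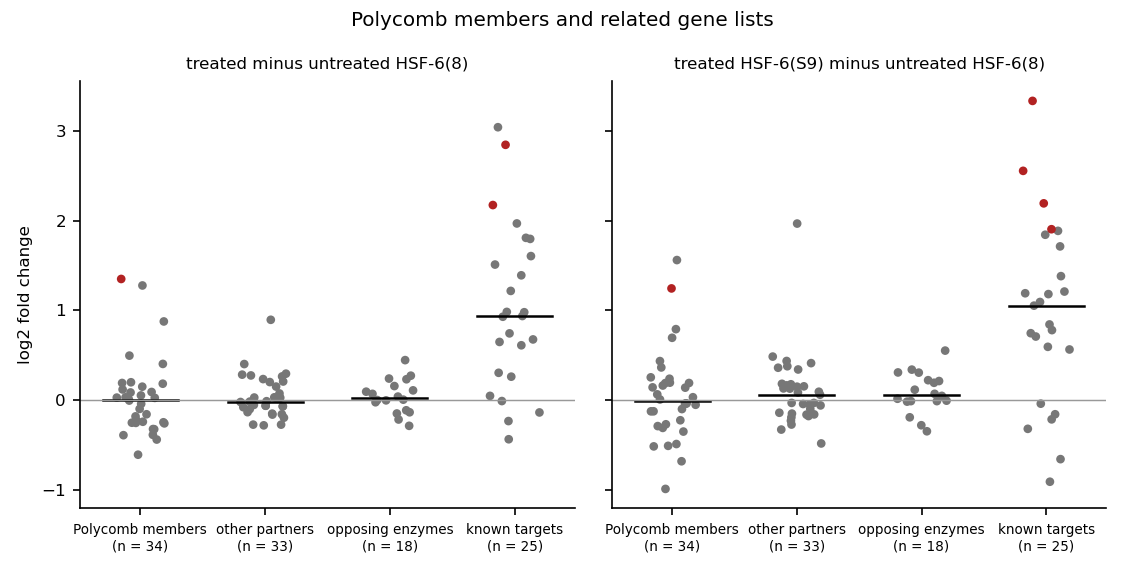
Log2 difference of each tested gene in the 34 Polycomb members, 33 other partners, 18 opposing enzymes and 25 known targets that passed the filter, for the 2 comparisons with untreated HSF-6(8); black lines are medians and red points are called genes. The members, partners and enzymes centre on 0. The filtered targets have medians of 0.94 and 1.05, but the filter favours genes that are high in some group. Without the filter, the 70 measured targets had medians of 0.27 and 0.11.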

How the data were processed

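Total RNA of 9 HSF-6 samples was measured on Affymetrix human arrays. The authors deposited a linear signal intensity for each probe set, produced with Affymetrix Expression Console and MAS5 per the submitters' processing notes; tool versions: not given in the sources used here. With 2% trimmed at either end, array means ranged from 500.061 to 500.076. Of 54675 probe sets, 62 were controls, 41091 had 1 gene in the platform annotation, 1801 several and 11721 none; 41037 were matched to current RefSeq symbols by Entrez number.

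To each intensity 16 was added before log2, which understates differences at low signal. The filter required a signal above the array's own median on 3 or more of 9 arrays (29328 probe sets kept). A gene was represented by its kept probe set of highest mean. All 9 arrays entered 1 limma 3.58.1 model of 3 groups in R 4.3.3, with 6 residual and 3.47 prior degrees of freedom, which was tested on simulated data. P-values are two-sided and Benjamini-Hochberg adjusted over all genes (or all kept probe sets). The number of arrays limits the precision.

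Values by array are given for EZH2, EED, SUZ12, RING1, called members and the 5 members with the largest differences of each comparison, with BCOR added after its values were seen. From each other list, called genes or else the 2 largest absolute differences in treated against untreated HSF-6(8) were named, with SOX2 and NANOG as a check of the cell label. TAGLN and CER1 were added after their values were seen. Members and lists were chosen with earlier results of these data known. Prime marks were checked as a pairing: residuals of same-mark arrays correlated at 0.21, 0.26 and 0.49 between the HSF-6(8) groups and 0.19, 0.20 and 0.26 between the treated sublines, but -0.02, 0.08 and 0.34 between treated HSF-6(S9) and untreated HSF-6(8). The same-mark values met a minimum of 0.1 in the first 2 comparisons only. Between the HSF-6(8) groups, first and second arrays of unlike mark correlated at 0.32 and 0.26, so the minimum cannot show a pairing of those arrays. The 21 alternatives were other added constants, filters, normalization, variance model, value per gene, call rule, samples, blocks for the mark and for the third arrays, and each array left out.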

Additional observations from a re-analysis of the deposited data

How the results depend on the processing

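Of 2127 member values over 21 alternatives, 2004 kept sign and side of the threshold, 21 lost and 3 gained a call, and 99, from 43 of 102 member differences, had the other sign. None of those 99 was called in either fit. Examples with an array left out are MTF2 (-0.58 to 0.20) and ASXL3 (-0.74 to 0.39) in HSF-6(8) and EZH2 between the treated sublines (-0.35 to 0.18). Of the complex medians, 359 moved by less than the spread between arrays and 19 by more. In treated against untreated HSF-6(8), the 1 member called became 0 with no filter and with probe sets averaged per gene, and 0 to 1 with an array left out. In treated HSF-6(S9) against untreated HSF-6(8), it became 0 with 1 added, with no filter, with averaged probe sets, with the first and second arrays only and with only the 2 groups compared, 2 with the replicate block and with the block for the third arrays (ASXL1 and YAF2), and 0 to 2 with an array left out. Between the treated sublines it stayed 0. Member probe sets called, 0 in every main comparison, became 2 (block for the third arrays), 1 (only the 2 groups) and 0 to 2 (an array left out) in HSF-6(8). In treated HSF-6(S9) against untreated HSF-6(8) they became 1 with 64 added, with the stricter filter, with a variance trend and with the replicate block, 3 with the block for the third arrays, and stayed 0 with an array left out. The replicate block (YAF2 adjusted p = 0.0428) changed no other member call, and not every array correlated best with its own mark. ASXL1 itself kept its call in HSF-6(8) in 10 of 12 settings and 2 of 9 leave-one-out fits, and in 7 of 12 and 2 of 9 in treated HSF-6(S9) against untreated HSF-6(8). Its adjusted p spanned 0.00996 to 0.436 and 0.0209 to 0.281. Calls over all genes moved too: 115 in HSF-6(8) became 65 with the stricter filter, 189 with the block for the third arrays and 53 to 119 with an array left out. The 160 of treated HSF-6(S9) against untreated HSF-6(8) became 96 with no filter, 95 with the stricter filter, 258 and 301 with the blocks and 58 to 241 with an array left out. The cause was not tested. With 3 arrays a group, the spread limits what was detectable, and members near background (YAF2, ASXL3) were measured least precisely.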

Other observations

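The 10 tested genes nearest to ASXL1 on chromosome 20 lie between positions 32109714 and 32850405 (GRCh38.p14). None was called with limma, but all 3 treated arrays lay above all 3 controls for 5 of the 10 in HSF-6(8) and for 5 of the 10 in treated HSF-6(S9) against untreated HSF-6(8), against 10.3% and 11.4% of all genes. The other 5 overlapped in HSF-6(8), and in the latter comparison 4 overlapped while C20orf203 had all treated arrays below all controls (log2 difference -0.51, against 8.86% of all genes lower). Their median log2 difference was 0.27 and 0.36, and that of the 392 tested genes of the chromosome was 0.03 and 0.05. NOL4L, the next tested gene downstream of ASXL1, had differences of 0.81 ± 0.20 (adjusted p = 0.127) and 0.98 ± 0.20 (adjusted p = 0.0539), and KIF3B, the next upstream, of 0.55 ± 0.19 and 0.69 ± 0.19. DNMT3B, a DNA methyltransferase in the same stretch, had 0.07 ± 0.25 and 0.17 ± 0.25. These genes were looked at because ASXL1 was called, and the comparisons share their control arrays.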
